A study of Mus musculus with 4 samples.

Results

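The Hk2 locus is a 200 kb stretch of mouse chromosome 6 (82.6 to 82.8 Mb in build mm9) named for the hexokinase 2 gene, and it was described here in H3K27ac and HNF4A ChIP-seq of colonic epithelium. ChIP-seq sequences the DNA that an antibody pulls down with its target. Every listed region and peak with at least 1 bp in the stretch was taken, which gave 14 of the 30574 intervals in the 4 deposited lists. These were 8 of the 1000 regions that the authors list as enriched for H3K27ac in colitis, 0 of the 1000 listed as enriched in controls, 4 of 17886 HNF4A peaks of control mice and 2 of 10688 HNF4A peaks of mice with colitis. The H3K27ac lists were chosen by the authors on the same tag counts that are given below, and the stretch was picked because its regions stood close together. The H3K27ac differences and the number of regions are therefore descriptions of that choice and carry no test.

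The 4 groups held 1 library each. H3K27ac in water, H3K27ac in DSS, HNF4A in water and HNF4A in DSS were each profiled in scraped colonic epithelium of adult mice of 2 to 4 months. The control mice drank water only, and the others received 3% dextran sulfate sodium (DSS) for 6 days, which damages the lining of the colon and brings on colitis. The labels name no strain, genotype or sex and do not say whether animals were pooled, and the column names call the control library WT. The H3K27ac libraries held 10143920 tags in water and 10329416 in DSS, so scaling by depth moves a ratio little. For HNF4A the files give no depth. With 1 library per group no difference has a replicate check, and all intervals are 95% intervals that cover counting error only. A scraping holds several kinds of cells, and a change in their proportions cannot be told apart from a change of signal per cell. The DSS-enriched list holds 10 regions on the Y chromosome, 9 of them not overlapping, with 498 tags in DSS and 6 in water, and the water-enriched list holds 0. What part that difference between the libraries has in the values at Hk2 was not tested.

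Hexokinases add a phosphate to glucose, which traps the sugar in the cell and opens glycolysis. Hexokinase 2 is the inducible member of the family: it is low in many resting adult tissues, is switched on by hypoxia-inducible factor and by MYC, and binds to the outer mitochondrial membrane. In the gut it has been studied as a gene that is raised in inflamed epithelium. H3K27ac is an acetyl mark on histone H3 at active enhancers and promoters. HNF4A, a DNA-binding nuclear receptor, keeps up genes of differentiated intestinal epithelium. Neither mark nor factor reports the amount of Hk2 mRNA, which was not measured in these files.

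All 8 regions were tied to a single point by the authors' own table. Each region carries a distance in bp to a reference point that the header does not name. Counted from the centres of the regions, the distances of all 8 met at position 82724448 within 1 bp, with 7 regions on the side of lower coordinates and 1 on the other side. RefSeq's gene table for GRCm38 uses another build, so none of its coordinates were used, but spacings can be compared. Between 82 and 100 Mb of chromosome 6 lay 28 other listed regions. For 17 of them a reference point lay as far from 82724448 as the start of a gene lies from the start of Hk2 in GRCm38, within 1 bp, over 9 genes. The point was therefore read as the start of Hk2 (gene identifier 15277). Hk2 is on the minus strand and 49.4 kb long in that table, between the coding genes Pole4 and Sema4f, so lower coordinates are downstream of its start and all 7 downstream regions fall within the length of the gene. Whether they lie in introns or exons was not analysed here.

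The DNA just before that start is printed because the distances below are counted from it. It is RefSeq's GRCm38.p6 sequence of the 250 bases before the start of Hk2, on the minus strand, 5′ to 3′. Capitals mark matches on either strand to the hypoxia response element core ACGTG, the CCAAT box, the GC box GGGCGG and the short cAMP response element TGACG.
Hk2 promoter: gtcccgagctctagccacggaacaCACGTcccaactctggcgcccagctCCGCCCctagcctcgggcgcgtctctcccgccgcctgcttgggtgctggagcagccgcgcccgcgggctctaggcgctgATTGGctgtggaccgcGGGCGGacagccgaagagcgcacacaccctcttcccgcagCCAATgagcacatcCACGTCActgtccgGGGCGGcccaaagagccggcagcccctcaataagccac
ACGTG was found 226 and 52 bases before the start, CCAAT 122 and 66 bases before it, GGGCGG 201, 106 and 38 bases before it, and TGACG 50 bases before it, overlapping the nearer ACGTG. Among 32851 promoters cut to the same 250 bases, 16.6% held ACGTG, 33.8% CCAAT, 32.7% GGGCGG and 17.8% TGACG. The sequence held no match to the HNF4 sites CAAAGTC (found in 3.84% of promoters) and CAAAGTCCA (0.384%), to the AP-1 site TGANTCA (6.75%), to the E-box CACGTG (6.02%) or to TATAAA (12.4%). G and C made up 69.6% of its bases, against a median of 52.4% over all promoters. A match is a run of letters and not a binding site. The deposited lists cannot speak about this stretch itself for H3K27ac, since the smallest distance of any listed region to its reference point is 2006 bp.

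By nucleosome tags, H3K27ac was higher in DSS at every listed region around Hk2. The authors count tags on the nucleosomes of a region, headed nuc, and tags in the linker between them, headed lin, a reading of the column names. With overlapping regions counted once, the 7 separate regions held 152 nucleosome tags in water and 535 in DSS, a depth-scaled ratio of 3.46 (interval 2.88 to 4.17). All 8 regions were more than 2-fold higher in DSS, beside 71.7% of the DSS-enriched list, and all 8 intervals lay above 1, beside 95.8% of the list. Since the list was made from this contrast, nothing is read from these counts.

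**Figure D1:**
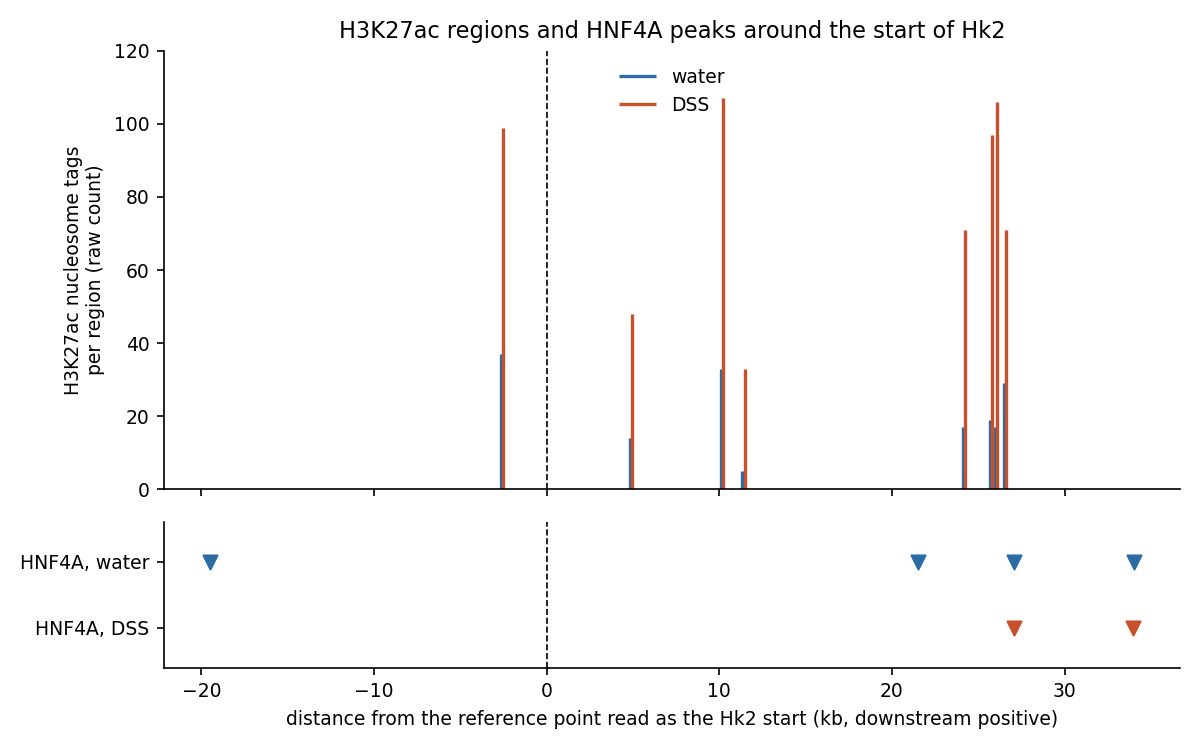
Upper panel: raw H3K27ac nucleosome tags (vertical axis) of the 8 listed regions in water (blue) and DSS (red), placed by the distance of their centre from the point read as the Hk2 start (horizontal axis, kb, downstream positive). Lower panel: centres of the HNF4A peaks in each library. Most regions lie downstream of the start, in a far group near 26 kb, a pair near 11 kb and 1 region at 4.86 kb, and the DSS bar is the higher one at each of the 8 regions.

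The far group held 4 regions between 24.2 and 26.5 kb downstream of the start, packed into 2.88 kb. The outermost region (chr6:82697666-82698181) held 29 nucleosome tags in water and 71 in DSS, a ratio of 2.40 (1.54 to 3.84), the lowest of the 8. Its neighbour (chr6:82698206-82698661), which begins 25 bp further on, held 17 and 106 tags, a ratio of 6.12 (3.65 to 10.9). This region had the highest score of the 8 and ranked 57 of 1000 in the DSS-enriched list by the authors' score, which subtracts linker from nucleosome signal in each library. Next came a region that shares 200 bp with it (chr6:82698461-82698981), with 19 tags in water and 97 in DSS and a ratio of 5.01 (3.04 to 8.68). Because of the shared bases, these regions are not separate measurements. The last of the far group (chr6:82699976-82700541) held 17 and 71 tags, a ratio of 4.10 (2.39 to 7.43). Counting the overlapping regions once, the far group held 63 tags in water and 248 in DSS, a ratio of 3.87 (2.92 to 5.18).

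A pair of regions lay 10.2 and 11.4 kb downstream, 640 bp apart. The farther one (chr6:82712726-82713371) was the faintest of the locus in both libraries, with 5 nucleosome tags in water and 33 in DSS. Its ratio of 6.48 was the highest of the 8 and the least certain (2.51 to 21.3). The nearer one (chr6:82714011-82714541) held 33 and 107 tags, a ratio of 3.18 (2.14 to 4.86), and 107 was the highest nucleosome count of the locus in DSS. Summed, the pair gave 38 tags in water and 140 in DSS, a ratio of 3.62 (2.51 to 5.32).

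Within 5 kb of the start lay 1 region on each side. Downstream, 4.86 kb from the start (chr6:82719311-82719871), 14 nucleosome tags were counted in water and 48 in DSS, a ratio of 3.37 (1.83 to 6.61). Upstream, 2.58 kb from the start (chr6:82726716-82727341), the counts were 37 and 99, a ratio of 2.63 (1.78 to 3.94). The upstream region had the highest water count of the 8, the lowest score, and ranked 983 of 1000 in the list. Together the regions near the start held 51 tags in water and 147 in DSS, a ratio of 2.83 (2.05 to 3.97). The intervals of the sums of the far group, the pair and the regions near the start overlapped, and the differences between these sums were not tested.

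The ratios of single regions ran from 2.40 to 6.48, and most pairs of regions were not resolved at these counts. For the 27 pairs that share no bases, the ratio of one region was divided by that of the other and given its exact conditional interval. The interval held 1 in 24 pairs and left it out in 3, with no adjustment for the number of pairs. All the regions were listed on these same counts, so the comparison of pairs is a description and carries no test. The pairs reuse the same regions, and those 25.7 and 26.0 kb downstream share bases, so the 3 are not separate results. In those 3, the ratio 26.0 kb downstream was 2.55 times that at 26.5 kb (1.24 to 5.31) and 2.33 times that of the upstream region (1.19 to 4.70), and the ratio 25.7 kb downstream was 2.09 times that at 26.5 kb (1.03 to 4.26). In both libraries the tags per kb of region differed more: they ran from 7.75 to 62.3 in water and from 51.2 to 233 in DSS. The region 11.4 kb downstream was lowest in both. In water the highest values, 62.3 at 10.2 kb downstream, 59.2 at the upstream region and 56.3 at 26.5 kb downstream, were close, with 33, 37 and 29 tags behind them. In DSS the region 26.0 kb downstream was highest with 233 tags per kb, followed by the one 10.2 kb downstream with 202.

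**Figure D2:**
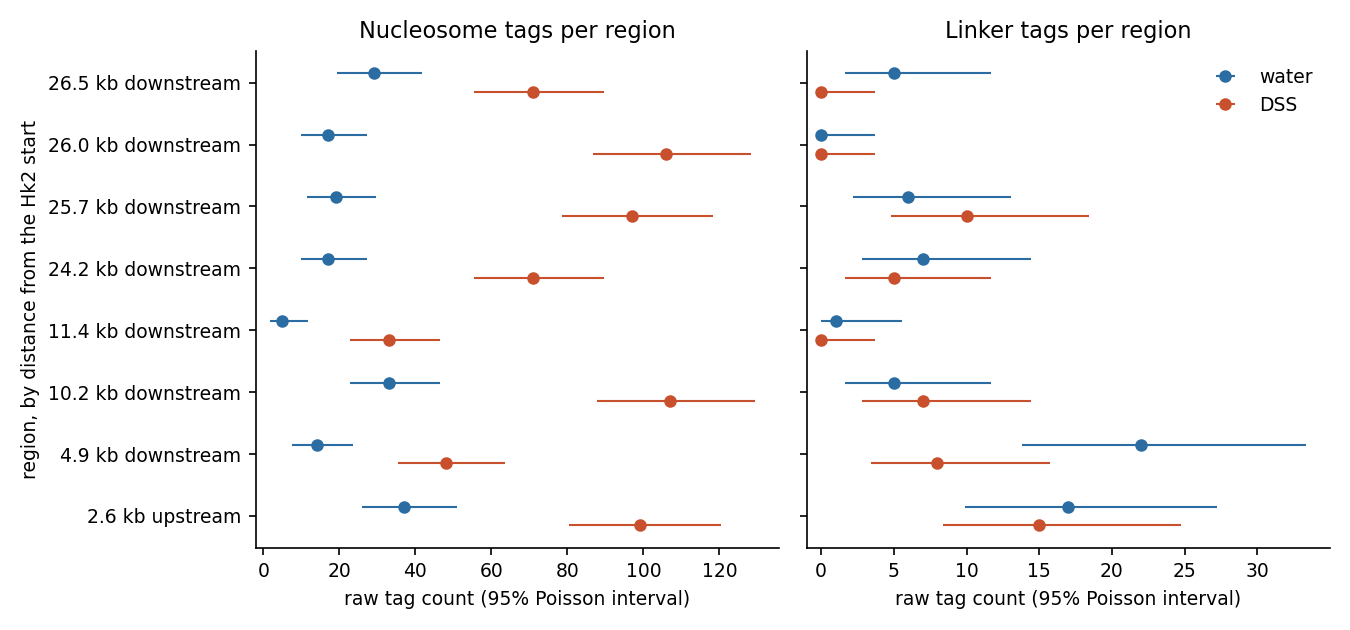
Raw nucleosome tags (left) and linker tags (right) of each region in water (blue) and DSS (red) on the horizontal axes, with regions on the vertical axis by distance from the Hk2 start; bars are exact 95% Poisson intervals of the count. Nucleosome counts sit between 5 and 37 in water and between 33 and 107 in DSS, while the linker counts of the libraries mix between 0 and 22.

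Linker tags were few, and at most of the regions lower in DSS, as over the whole list. They numbered 0 to 22 per region in water and 0 to 15 in DSS, and 3 regions had none in DSS. The scaled linker count was lower in DSS in 5 of the 8 regions, beside 70.4% of the DSS-enriched list, and higher in 2, beside 20.9%. In 1 region there was no linker tag in either library, beside 8.7% of the list. For 7 of the 8 regions the linker ratio had an interval that held 1, beside 79.1% of the list. These counts are near the shares of the list and show nothing particular to Hk2. Among the 8, the interval that left out 1 was that of the region 4.86 kb downstream. This region held 22 linker tags in water and 8 in DSS, a ratio of 0.357 (0.137 to 0.833). Over the 7 separate regions the sums were 57 in water and 35 in DSS, a ratio of 0.603 (0.384 to 0.935). This sum rested on the region 4.86 kb downstream: without it the counts were 35 and 27 and the interval held 1 (ratio 0.758, interval 0.441 to 1.29). It also held 1 when overlapping regions were both counted (0.701, interval 0.468 to 1.04). The overlapping region left out of the sum had 6 linker tags in water and 10 in DSS, and the one kept had 0 in each.

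The tags of the locus sat more on nucleosomes in DSS. Of all tags in the 7 separate regions, 72.7% were nucleosome tags in water (Wilson interval 66.3 to 78.3) and 93.9% in DSS (91.6 to 95.6). Without the region 4.86 kb downstream the shares were 79.8% (73.2 to 85.1) and 94.7% (92.5 to 96.4). The medians per region of the whole DSS-enriched list went the same way. They were 38 nucleosome and 6 linker tags in water, and 106 and 4 in DSS. The authors' score rewards this pattern, so it is part of how the regions were listed.

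Counting nucleosome and linker tags together gave smaller ratios. The locus then held 209 tags in water and 570 in DSS, a ratio of 2.68 (2.28 to 3.15). By all tags, 7 of the 8 regions were more than 2-fold higher in DSS, beside 60.1% of the list, and 7 intervals lay above 1, beside 86.4% of the list. The region that dropped out was again the one 4.86 kb downstream, with 36 tags in water and 56 in DSS and a ratio of 1.53 (0.987 to 2.39). That interval holds 1 and also holds 2, so the all-tag difference there was not resolved at this depth. At the region 26.0 kb downstream, which had no linker tags, the ratio stayed at 6.12.

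**Figure D3:**
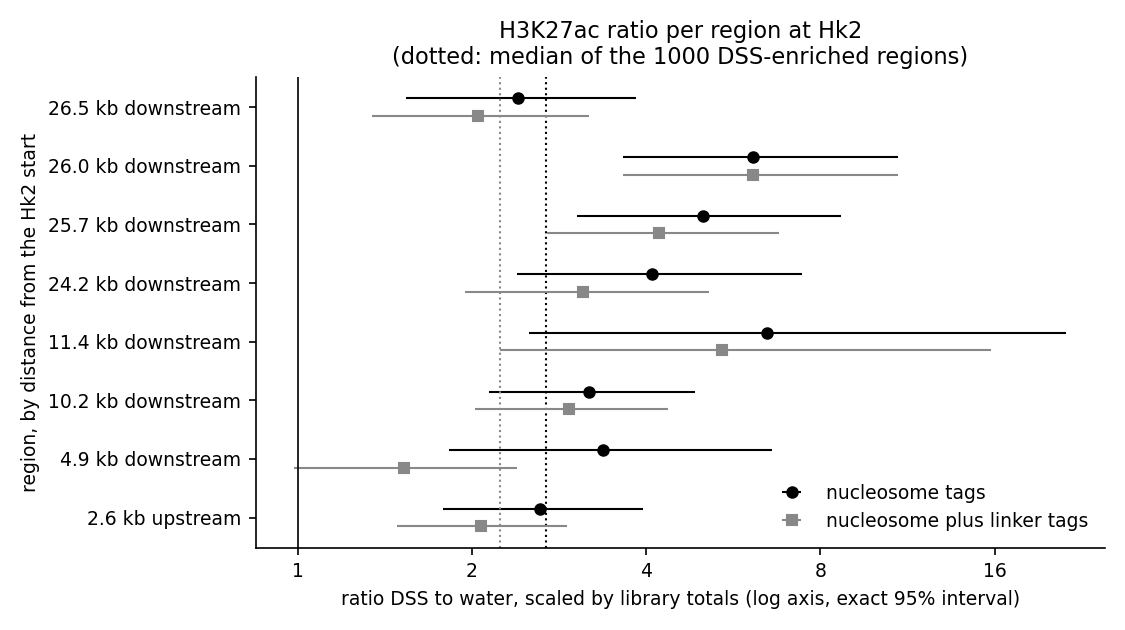
Ratio of DSS to water (horizontal, log axis) for each region (vertical axis, by distance from the Hk2 start), by nucleosome tags (black circles) and by nucleosome plus linker tags (grey squares), scaled by library totals with exact 95% intervals. Dotted lines mark the medians of the 1000 DSS-enriched regions, 2.68 for nucleosome tags and 2.23 for all tags; the region 4.86 kb downstream is the one where the 2 readings part most, 3.37 against 1.53.

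Beside the other DSS-enriched regions, those at Hk2 held few tags in both libraries, from the middle of the list downwards. All 8 had fewer nucleosome tags in water than the list's median of 38, with a median of 18 tags. In DSS 6 of the 8 were below the list's median of 106 and the others were at 106 and 107, with a median of 84 tags. Their median ratio was 3.73, against 2.68 in the list, and 6 of the 8 were above the list's median. By all tags the medians were 3.03 and 2.23, and 5 of the 8 were above. These figures place the regions within a list chosen on the same counts and do not set them apart from it. The lowest water count among the 8 was 5 nucleosome tags, at percentile 8.85 of the list in ascending order. Most of the list therefore also had at least 5, and 18 regions of it had 0. No input library was used here, so a low count in water cannot be told apart from background.

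**Figure D4:**
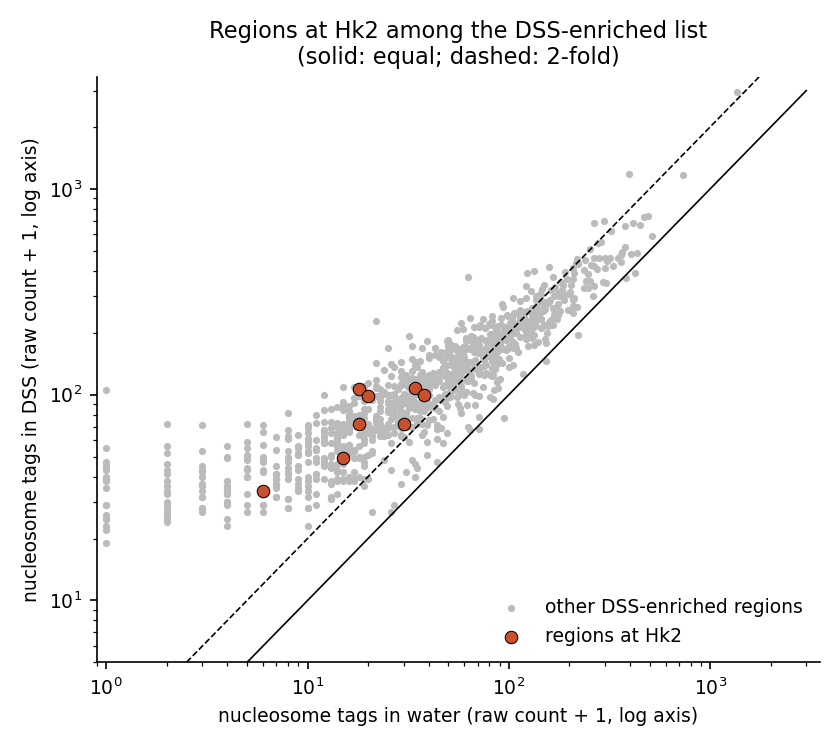
Nucleosome tags in water (horizontal) and DSS (vertical) of all 1000 DSS-enriched regions, each as raw count plus 1 on log axes without depth scaling, with the 8 regions at Hk2 in red. The solid line marks equal values and the dashed line a 2-fold difference; the regions at Hk2 lie between 5 and 37 raw tags in water, left of the list's median of 38, and within the cloud of the other regions.

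The start of Hk2 gathered more regions than any other reference point of the DSS-enriched list. Points shared by 2 or more regions numbered 135 in that list. The point at Hk2 held 8, and the next 4 points held 5 each. In the water-enriched list the 2 fullest points held 7 each, and the point at Hk2 held 0. Overlapping regions are included in these counts. The stretch was picked because its regions stood close together, so its place in this ranking is part of that choice.

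DSS-enriched regions no more than 50 kb from the next were joined into groups, and the only other group of 5 or more separate regions lay on chromosome 12 (chr12:112666501-112676816). At Hk2, 8 listed regions merged into 7 separate ones, and the group on chromosome 12 also held 8, which merged into 5. Its nucleosome ratio of 3.54 (2.91 to 4.32) had an interval that overlapped that of the 3.46 at Hk2, and the difference was not tested. The group on chromosome 12 held 44 linker tags in water and 42 in DSS, and the interval of its ratio held 1 (0.937, interval 0.599 to 1.46). That interval overlapped the one of the linker ratio at Hk2 (0.603, interval 0.384 to 0.935), and this difference was not tested either. The water-enriched groups of this size, on chromosome 4 (chr4:55616481-55731861) and chromosome 6 (chr6:52198701-52248971), were 1.77-fold (1.62 to 1.92) and 2.13-fold (1.93 to 2.35) higher in water. Their tag totals were larger than at Hk2, with 1517 and 1266 nucleosome tags in water.

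The edges of the stretch left out 3 further DSS-enriched regions. They began 13316, 42486 and 53126 bp beyond its upper edge, with nucleosome counts of 58 in water and 169 in DSS, 8 and 44, and 10 and 79. The ratios were 2.86 (2.11 to 3.93), 5.40 (2.52 to 13.3) and 7.76 (4.00 to 16.8). Their distances met at another reference point, whose spacing from the start of Hk2 matched that of 2310069B03Rik, a long non-coding RNA gene in the GRCm38 table. On the lower side the nearest listed region ended 601669 bp before the edge, with 70 tags in water and 129 in DSS. The 8 regions at Hk2 all lay far inside the edges, from 82697666 to 82727341.

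HNF4A had 4 peaks around Hk2 in water and 2 in DSS, the nearest of them 19.5 kb from the start. All deposited peaks are 600 bp wide, and their scores are the authors' and serve here only to rank peaks within a list, where rank 1 is the strongest. In water the 4 peaks lay 34.0, 27.04 and 21.5 kb downstream of the start and 19.5 kb upstream. In DSS the 2 peaks lay 34.0 and 27.09 kb downstream. Both DSS peaks overlapped a water peak, beside 82.3% of all DSS peaks, and 2 of the 4 water peaks overlapped a DSS peak, beside 52.9% of all water peaks. Neither share can be told from its background at such small numbers.

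The strongest HNF4A peak of the locus bordered the far group of H3K27ac regions and was found in both libraries. In water it spanned chr6:82697104-82697703 and ranked 5163 of 17886, within the top 28.9% of the list. In DSS it spanned chr6:82697059-82697658 and ranked 3364 of 10688, within the top 31.5%. The intervals are shifted by 45 bp. The water peak shares 37 bp with the outermost H3K27ac region, while the DSS peak ends 8 bp before that region begins. Counted by shared bases, the locus thus had 1 region with a water peak and 0 with a DSS peak, although a peak stood beside the region in both libraries.

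A second peak in both libraries lay 34.0 kb downstream, at chr6:82690153-82690752 in water and 5 bp away at chr6:82690158-82690757 in DSS. It ranked 10039 in water, within the top 56.1%, and 8359 in DSS, within the top 78.2%, and lay 6914 bp from the nearest listed H3K27ac region. The remaining peaks were in the water list alone. The one 21.5 kb downstream (chr6:82702618-82703217) ranked 12115, within the top 67.7%, and lay 2076 bp past the far group. The one 19.5 kb upstream (chr6:82743644-82744243) ranked 13420, within the top 75.0%. Both rank below 10688, the length of the DSS list, so a water list of that length would hold neither. The DSS list is shorter, at a depth the files do not give, and the part of its length in the absence of these weak peaks from the DSS list was not tested.

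HNF4A peaks met the H3K27ac regions at Hk2 in numbers that cannot be told from the shares of the whole list. By at least 1 shared bp, 1 of the 8 held a water peak, beside 20.8% of DSS-enriched regions, and 0 of the 8 held a DSS peak, beside 13.9%. Within 2 kb, 3 of the 8 had a water peak (38.2% of the list) and the same number had a DSS peak (27.8% of the list). These were in both cases the 3 regions of the far group that lie nearest to the peak 27.04 kb downstream in water. The other 5 regions, 24.2 kb downstream and nearer to the start, had no peak of either library within 2 kb. Their nucleosome ratios ran from 2.63 to 6.48, and those of the 3 regions near the peak from 2.40 to 6.12. The regions were all listed on these same counts, and the 3 lie beside a single peak. A link between HNF4A and the ratio was therefore not tested. In the group on chromosome 12, 2 of 8 listed regions overlapped a water peak and 3 of 8 a DSS peak, numbers too small to tell from those at Hk2.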

How the data were processed

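H3K27ac and HNF4A ChIP-seq of colonic epithelium from mice given water or DSS was used as deposited, with 1 library per group. Build mm9, CASAVA 1.8.2 and MACS2 come from the submitters' processing notes. The aligner and the peak thresholds were not stated in the labels or file headers. Short codes in the names of the HNF4A peak lists may be peak-calling settings but are unexplained. H3K27ac files deposited by the authors hold raw tag counts per region and a score, per the file headers, which also mark reads as MAPQ20 and the DSS library as r2, unexplained. The score was rebuilt from the counts, which gave the library totals. For HNF4A the authors deposited a peak score of unstated kind. H3K27ac coordinates are printed as deposited and read as half-open; peak starts were made 1-based.

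Ratios were scaled by library totals and given exact conditional (Clopper-Pearson) intervals, and shares Wilson intervals, with scipy 1.17.1; the code was tested on simulated data. A region with no water tags counted as past 2-fold. Ties in rank took the lowest number. Every region and peak of the stretch was described. The members, lists and comparisons were chosen with earlier results of these data known. A list of glycolysis genes needs mm9 gene coordinates and was not analysed here. Alternatives covered scaling, tags counted, overlaps, thresholds, list length and window; a wider window for tags and leaving out the region with most water linker tags were added after seeing the data. The promoter motifs were chosen after seeing the data too.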

Additional observations from a re-analysis of the deposited data

How the results depend on the processing

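Each single-region ratio was recomputed without depth scaling and with all tags. All 8 stayed above 1, from 2.45 to 6.60 unscaled and from 1.53 to 6.12 with all tags, and the region 4.86 kb downstream of the Hk2 start was the 1 whose all-tag value (1.53) left the interval of its nucleosome ratio. The ratio of the locus was 2.68 with all tags, below its main interval, and between 3.46 and 3.72 under the other alternatives. The linker ratio lay between 0.614 and 0.758 under its alternatives, and its interval held 1 with every listed region or without the region 4.86 kb downstream. Of the 8 regions past 2-fold, 6 passed 3-fold. The HNF4A counts are small and moved most: the 4 water peaks became 2 at the length of the DSS list, 1 at or above the pooled median score and 8 in the wider window, and the 2 DSS peaks became 1 at or above that score. Regions with a water peak went from 1 to 3 within 2 kb and to 0 when the peak's centre had to lie inside the region, and regions with a DSS peak from 0 to 3 within 2 kb. No paired analysis was possible because each group held 1 library. The linker counts of at most 22 tags per region and the unknown HNF4A depth limit what can be said.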

Other observations

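In the 100 kb beyond the upper edge of the stretch, 4 further HNF4A peaks were listed in water and 0 in DSS, and the 100 kb below the lower edge held none in either list. The water peaks lay at chr6:82810403-82811002 (rank 10210 of 17886), chr6:82811927-82812526 (rank 14101), chr6:82847375-82847974 (rank 11022) and chr6:82877607-82878206 (rank 10331). None of the 4 overlapped a DSS peak, beside 47.1% of all water peaks that overlap none, and none overlapped a listed H3K27ac region, beside 96.3% of all water peaks. The peaks of rank 10210 and 10331 are within the strongest 10688 water peaks, the length of the DSS list, and the other 2 are not. These peaks were looked at after the data were seen.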
